A study of Mus musculus with 378 samples.

Results

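Pancreatic islets of outbred mice were compared between libraries whose RNA lay at opposite ends of a circadian clock score. The score was built from 6 clock genes. Each gene's deposited log2 value was standardised among the libraries of the same sex, and the mean for Arntl, Npas2 and Clock was subtracted from the mean for Dbp, Per3 and Ciart. Over all libraries, 95 lay at or above the 75th percentile of the score (high-score libraries) and 95 at or below the 25th percentile (low-score libraries), so that 190, or 50.3% of those of the series, entered the comparison. The libraries between them (middle libraries, 100 from females and 88 from males) were kept for a separate test. The labels give no time of day at which islets were taken, so the groups are defined by RNA alone and their phase was not measured.

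Every library came from a different Diversity Outbred mouse, an outbred stock in which each animal carries its own mix of the genomes of several inbred founder strains. All mice in both groups, the labels say, had eaten a diet rich in fat and sugar (45% fat), and no other treatment, genotype or age is labelled. The high-score libraries were from 46 females and 49 males, and the low-score libraries from 42 females and 53 males. Islets are clusters of endocrine cells in the pancreas that secrete insulin, glucagon and somatostatin. Polyadenylated RNA was sequenced, with total counts of 15.1 to 49.9 M (median 34.8 M) in high-score and 19.1 to 68.8 M (median 34.7 M) in low-score libraries.

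The circadian clock is a transcriptional loop that runs in nearly every mammalian cell. ARNTL (BMAL1) pairs with CLOCK or NPAS2 and binds E-boxes in the promoters of the Per and Cry genes, of Nr1d1 and Nr1d2, and of Dbp and Tef, and the PER and CRY proteins then repress the pair. NR1D1 and NR1D2 (REV-ERB alpha and beta) repress, and the ROR receptors activate, genes with a ROR element, Arntl among them, while DBP, TEF and HLF activate and NFIL3 represses genes with a D-box. In islets the clock is known for its part in the daily rhythm of insulin secretion.

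The 6 score genes chose the groups, so their values describe the choice and carry no test. Levels are in CPM, a gene's counts relative to the total of its library (scaled by TMM factors), and are not per length of the gene. Per3 had 10.02, 24.7 and 42.6 CPM (lowest, median and highest) in high-score libraries, against 2.90, 11.1 and 21.1 CPM in low-score libraries. Arntl had 1.41, 3.54 and 11.5 CPM in high-score libraries, against 5.12, 10.2 and 29.4 CPM in low-score libraries. The ranges overlapped for every score gene, and the medians were furthest apart, relative to their size, for Arntl, Dbp (11.4 CPM in high-score and 4.75 CPM in low-score libraries) and Per3. Those of Ciart were 9.11 CPM in high-score and 5.25 CPM in low-score libraries, those of Npas2 12.1 CPM in high-score and 23.9 CPM in low-score libraries, and those of Clock 162.05 CPM in high-score and 191.2 CPM in low-score libraries. The score ran from -4.22 to 3.87. The lowest high-score library had 0.846 and the next below it 0.845, while the highest low-score library had -0.813 and the next above it -0.808, so mice on either side of a boundary hardly differed in score.

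RefSeq start-site windows of 300 bases (build GRCm38.p6, 250 bases before to 50 after the start) were searched on both strands for the E-box CACGTG, the D-box TTATGTAA or TTACGTAA, and the ROR element (AANT followed directly by AGGTCA or GGGTCA). Of 32851 such windows, 7.15% held the E-box, 1.06% the D-box and 0.435% the ROR element. Ciart, a repressor of the ARNTL pair, has 3 E-boxes in the window chr3:95882179-95882478 (minus strand), and Arntl has 1 ROR element in the window chr7:113207261-113207560 (plus strand). They are shown, with matches in capitals, as the only score genes with an E-box or a ROR element in a window. The windows of Dbp, Npas2 and Clock and the other window of Arntl held none of these elements, and that of Per3 held 2 D-boxes.
Ciart: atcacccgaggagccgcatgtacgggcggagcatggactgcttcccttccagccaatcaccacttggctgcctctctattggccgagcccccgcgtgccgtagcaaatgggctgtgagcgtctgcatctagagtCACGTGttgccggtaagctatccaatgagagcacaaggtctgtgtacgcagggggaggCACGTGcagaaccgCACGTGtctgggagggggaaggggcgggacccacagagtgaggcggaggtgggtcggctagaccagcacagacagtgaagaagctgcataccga
Arntl: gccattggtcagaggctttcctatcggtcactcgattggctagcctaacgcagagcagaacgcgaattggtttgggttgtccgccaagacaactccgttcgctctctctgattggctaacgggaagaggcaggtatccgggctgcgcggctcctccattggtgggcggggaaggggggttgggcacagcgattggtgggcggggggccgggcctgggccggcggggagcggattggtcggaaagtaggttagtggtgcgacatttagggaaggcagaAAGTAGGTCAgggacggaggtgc
A match describes the letters of the reference genome and does not show that a factor binds there.

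Clock genes outside the score differed in both directions, Tef most clearly. Counts of 17926 genes were tested with edgeR's quasi-likelihood test, with sex and a band of mouse numbers as covariates, and differences are on the log2 scale as high-score minus low-score, with standard errors. Levels in CPM, and counts of libraries above or below a median, are not adjusted for sex or band. At an adjusted p under 0.05, 3489 genes passed, which is 19.5% of those tested. They comprised 1750 higher (9.76%) and 1739 lower (9.7%) in high-score libraries. Most differences were small, with a median absolute difference of 0.145 among the genes that passed, and 84 of these differed by at least 1.5-fold (31 higher and 53 lower). The median over all tested genes was 0.00533. Bulk RNA does not tell a change in the number of cells of a type from a change in RNA per cell.

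**Figure D1:**
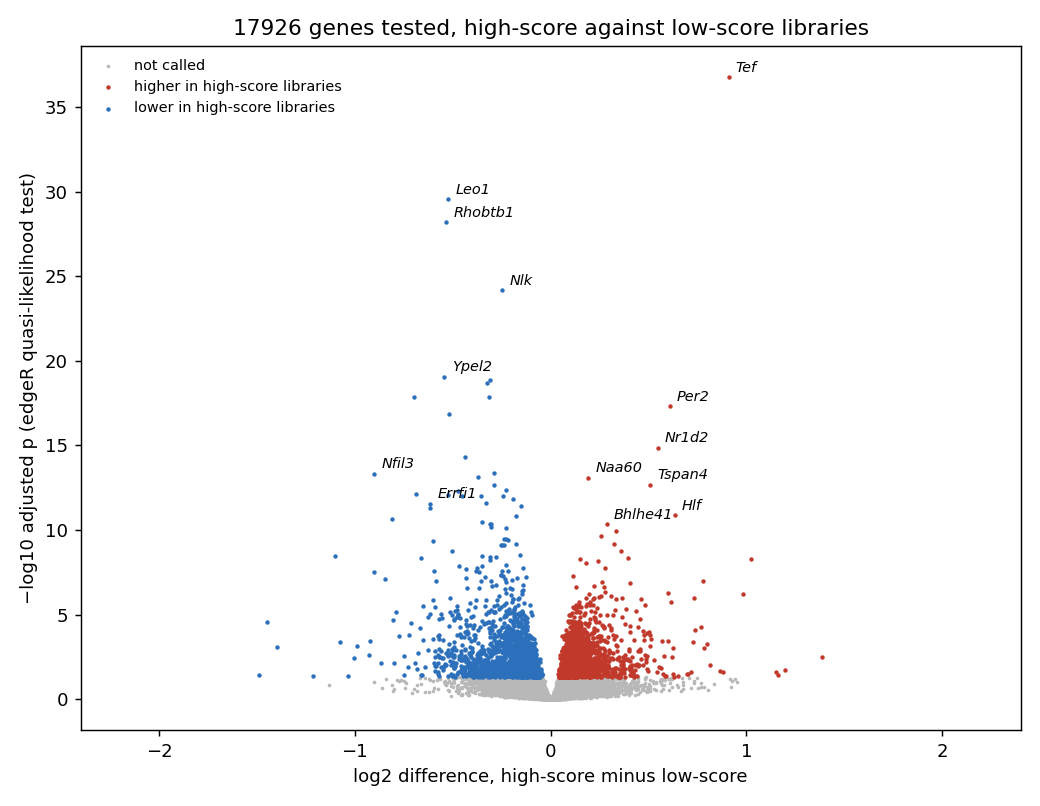
Log2 difference between high-score and low-score libraries (horizontal axis) against −log10 of the adjusted p (vertical axis) for 17926 genes, with genes that passed coloured by direction. Tef stands at the top among higher genes (log2 difference 0.91), and Leo1 and Rhobtb1 among lower ones (-0.52 and -0.53).

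Of 15 core clock genes outside the score, 6 were higher, 2 lower and 7 did not pass, and the list's median was 0.0234. The higher genes were Tef, Hlf, Per2, Nr1d2, Nr1d1 and Bhlhe41. The lower ones were Nfil3 and Cry1.

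Tef encodes a D-box activator of the same family as DBP. It had 41.5, 77.98 and 124.9 CPM in high-score libraries (lowest, median and highest), against 19.3, 40.9 and 77.9 CPM in low-score libraries. All 95 high-score libraries lay above the low-score median, and 48 of them lay above every low-score library. The difference of 0.91 ± 0.05 had the smallest adjusted p of all genes (1.7e-37, edgeR's quasi-likelihood test). Hlf, the third activator of that family, had 2.94, 5.36 and 13.1 CPM in high-score libraries, against 1.09, 3.51 and 10.5 CPM in low-score libraries, a difference of 0.63 ± 0.08 (adjusted p = 1.4e-11). Of the high-score libraries, 87 lay above the low-score median of Hlf. Nfil3, the D-box repressor, went the other way, with 7.42, 21.3 and 82.3 CPM in high-score libraries, against 13.1, 41.2 and 113.1 CPM in low-score libraries (-0.90 ± 0.10, adjusted p = 4.6e-14). In 86 high-score libraries Nfil3 was below the low-score median.

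Per2, a repressor of the loop, had 19.5, 43.1 and 99.8 CPM in high-score libraries, against 16.5, 26.98 and 54.5 CPM in low-score libraries. The difference was 0.61 ± 0.06 (adjusted p = 5e-18), and 89 of the 95 high-score libraries were above the low-score median. Cry1, its partner, was lower, with 12.1, 24.7 and 46.7 CPM in high-score libraries, against 12.6, 31.3 and 55.6 CPM in low-score libraries (-0.33 ± 0.06, adjusted p = 3e-06). In 76 high-score libraries Cry1 was below the low-score median, and the ranges overlapped almost fully. Per1 had the same median of 49.9 CPM in both groups (0.02 ± 0.07, adjusted p = 0.855). Cry2 had medians of 58.4 CPM in high-score and 51.5 CPM in low-score libraries and did not pass (0.14 ± 0.06, adjusted p = 0.114).

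Of the nuclear receptors, Nr1d2 had 59.05, 148.7 and 245.6 CPM in high-score libraries, against 29.03, 97.5 and 214.6 CPM in low-score libraries. The difference was 0.55 ± 0.05 (adjusted p = 1.4e-15), with 84 high-score libraries above the low-score median. Nr1d1 differed less clearly, with 13.2, 35.8 and 122.7 CPM in high-score libraries, against 5.78, 27.1 and 72.9 CPM in low-score libraries (0.43 ± 0.09, adjusted p = 0.00031). Groups taken by Arntl, Npas2 and Clock alone gave Nr1d1 a difference of 0.14 (adjusted p = 0.3), whereas those taken by Dbp, Per3 and Ciart alone gave 0.58. The ROR genes Rora (-0.07 ± 0.05) and Rorb (-0.07 ± 0.14) did not pass.

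Bhlhe41 (DEC2), an E-box repressor, had 43.3, 69.6 and 128.3 CPM in high-score libraries, against 29.9, 59.4 and 87.8 CPM in low-score libraries (0.29 ± 0.04, adjusted p = 4.7e-11). Its close relative Bhlhe40 (-0.07 ± 0.09), the Arntl relative Arntl2 (-0.01 ± 0.08) and Timeless (-0.03 ± 0.13) did not pass. The counts of Nr1d1, Cry2 and Bhlhe41 are fractional in all libraries, so some of their reads were assigned in part and their levels are less certain. Whether counting used the strand is not stated. Tef, Bhlhe41 and Nr1d1 each overlap a gene on the opposite strand (Gm17597 at 0.98, Gm43909 at 0.26, and Thra at -0.03, which did not pass), and the reads of such pairs may not be separable. The same holds for the score gene Dbp, whose counts are fractional in all libraries and which overlaps Sphk2 on the opposite strand (0.15, adjusted p = 0.0003). Other genes named below overlap a gene on the opposite strand too, such as Neurog3, Syt4 and Syvn1.

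**Figure D2:**
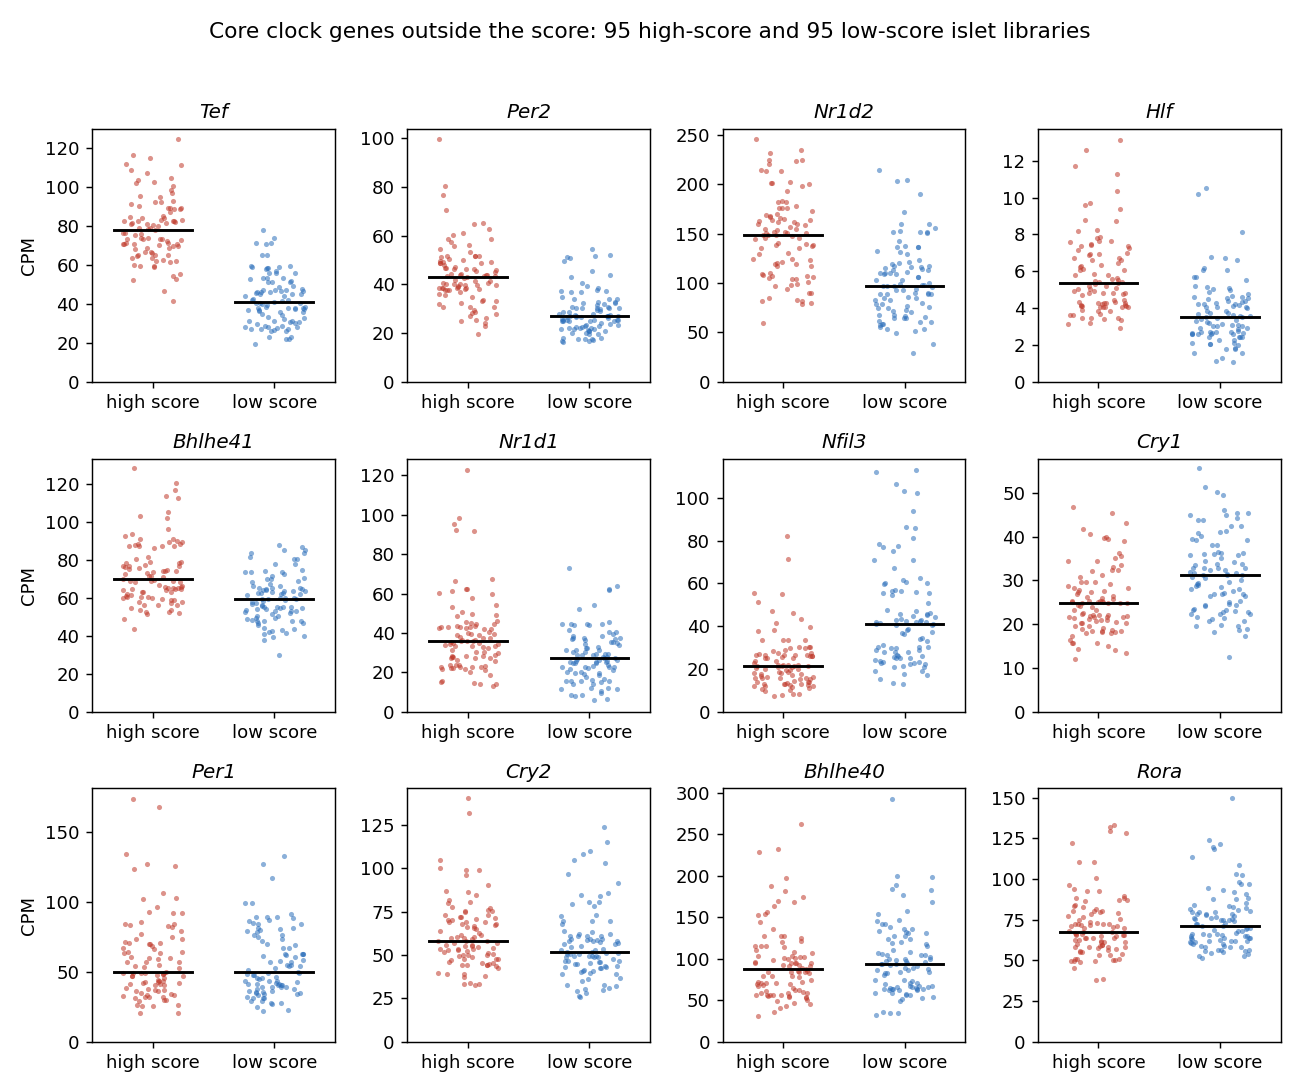
CPM of 12 core clock genes in each of 95 high-score (left) and 95 low-score (right) libraries, with black lines at the medians. For Tef all 95 high-score libraries lie above the low-score median (medians 77.98 and 40.9 CPM), and for Per1 the medians are equal (49.9 CPM).

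Of the 8 clock genes that passed, Per2 had no window to search, so nothing can be said of its E-boxes. Among the others Tef, Bhlhe41 and Cry1 have a start-site window with an E-box. Tef has 1 in each of its 2 windows, chr15:81802423-81802722 and chr15:81811164-81811463 (plus strand). Bhlhe41 has 1 in chr6:145865371-145865670 (minus strand), and Cry1 1 in chr10:85185005-85185304 (minus strand), 60 bases before the start. They are printed because the E-box is the element through which ARNTL is known to act, and it is in capitals.
Tef, first window: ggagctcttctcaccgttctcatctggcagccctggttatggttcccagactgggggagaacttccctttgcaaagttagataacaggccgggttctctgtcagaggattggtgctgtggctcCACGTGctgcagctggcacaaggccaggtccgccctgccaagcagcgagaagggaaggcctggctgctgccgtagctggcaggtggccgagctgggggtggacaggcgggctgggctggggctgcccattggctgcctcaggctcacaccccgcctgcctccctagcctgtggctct
Tef, second window: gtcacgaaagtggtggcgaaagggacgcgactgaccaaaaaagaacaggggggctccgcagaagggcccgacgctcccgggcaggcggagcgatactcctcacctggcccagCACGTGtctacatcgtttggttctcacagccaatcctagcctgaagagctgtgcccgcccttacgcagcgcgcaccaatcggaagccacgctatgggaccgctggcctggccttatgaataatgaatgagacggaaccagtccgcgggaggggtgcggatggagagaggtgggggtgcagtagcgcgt
Bhlhe41: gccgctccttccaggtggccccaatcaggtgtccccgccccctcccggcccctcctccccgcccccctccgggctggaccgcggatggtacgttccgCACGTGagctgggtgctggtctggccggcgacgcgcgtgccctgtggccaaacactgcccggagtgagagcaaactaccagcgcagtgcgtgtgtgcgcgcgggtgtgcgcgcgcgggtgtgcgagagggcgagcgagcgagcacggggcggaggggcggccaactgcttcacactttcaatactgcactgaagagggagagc
Cry1: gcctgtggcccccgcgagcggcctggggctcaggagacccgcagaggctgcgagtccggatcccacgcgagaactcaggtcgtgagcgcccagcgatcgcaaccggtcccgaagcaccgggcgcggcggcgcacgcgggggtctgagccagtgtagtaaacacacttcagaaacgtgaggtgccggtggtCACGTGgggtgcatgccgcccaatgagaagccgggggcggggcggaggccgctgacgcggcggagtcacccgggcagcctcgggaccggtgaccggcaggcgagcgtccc
Tef and Bhlhe41 were higher and Cry1 lower in high-score libraries, so the element was present in genes of both directions. Of 13 core clock genes with a window, which leaves out Per2 and Bhlhe40, 4 held an E-box, the fourth being Per1, which did not pass. Among genes named by rule it was in 8 of 49 higher ones, 10 of 53 lower ones and 2 of 47 that did not pass. Named genes on 1 chromosome were left out of these counts. A gene counts if any of its windows holds the E-box, whereas the 7.15% above is per window. No such share per gene was taken over all genes, so enrichment was not tested.

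The levels also followed the score between the groups. With all libraries in 4 classes of score of about the same size, from the lowest to the highest, median Tef was 40.9, 56.7, 63.7 and 77.98 CPM, and median Per2 26.98, 34.2, 39.4 and 43.1 CPM. Median Leo1 was 34.98, 29.7, 26.7 and 24.9 CPM in the same order. The middle libraries share no mouse with the groups compared, and over them the slope of each gene on the score was tested. There 4 genes passed an adjusted p under 0.05 (0.0223% of those tested, and 0.0112% in each direction), and 1145 had an unadjusted p under 0.05. Tef rose by 0.30 ± 0.04 log2 per unit of score (adjusted p = 8.6e-08, edgeR's quasi-likelihood test), and Naa60 by 0.11 ± 0.02 (adjusted p = 0.0075). Reg3a (-2.36 ± 0.41) and Reg3b (-1.66 ± 0.32), which encode antimicrobial lectins of the pancreas, had negative slopes but did not pass with limma-voom, the deposited values or sex as the only covariate, whereas Tef and Naa60 passed in all 3.

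Other clock genes had slopes of the same sign in the middle libraries without passing the adjusted threshold. Slopes were 0.21 ± 0.05 for Per2, 0.22 ± 0.05 for Nr1d2, 0.33 ± 0.08 for Hlf and -0.28 ± 0.09 for Nfil3. Those of Cry1 (0.02 ± 0.06) and Nr1d1 (-0.01 ± 0.10) were smaller than their standard errors. Of the 3489 genes that passed between the groups, 72.6% had a slope of the same sign in the middle libraries, against 56.1% of genes that did not pass and 59.3% of all tested.

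**Figure D3:**
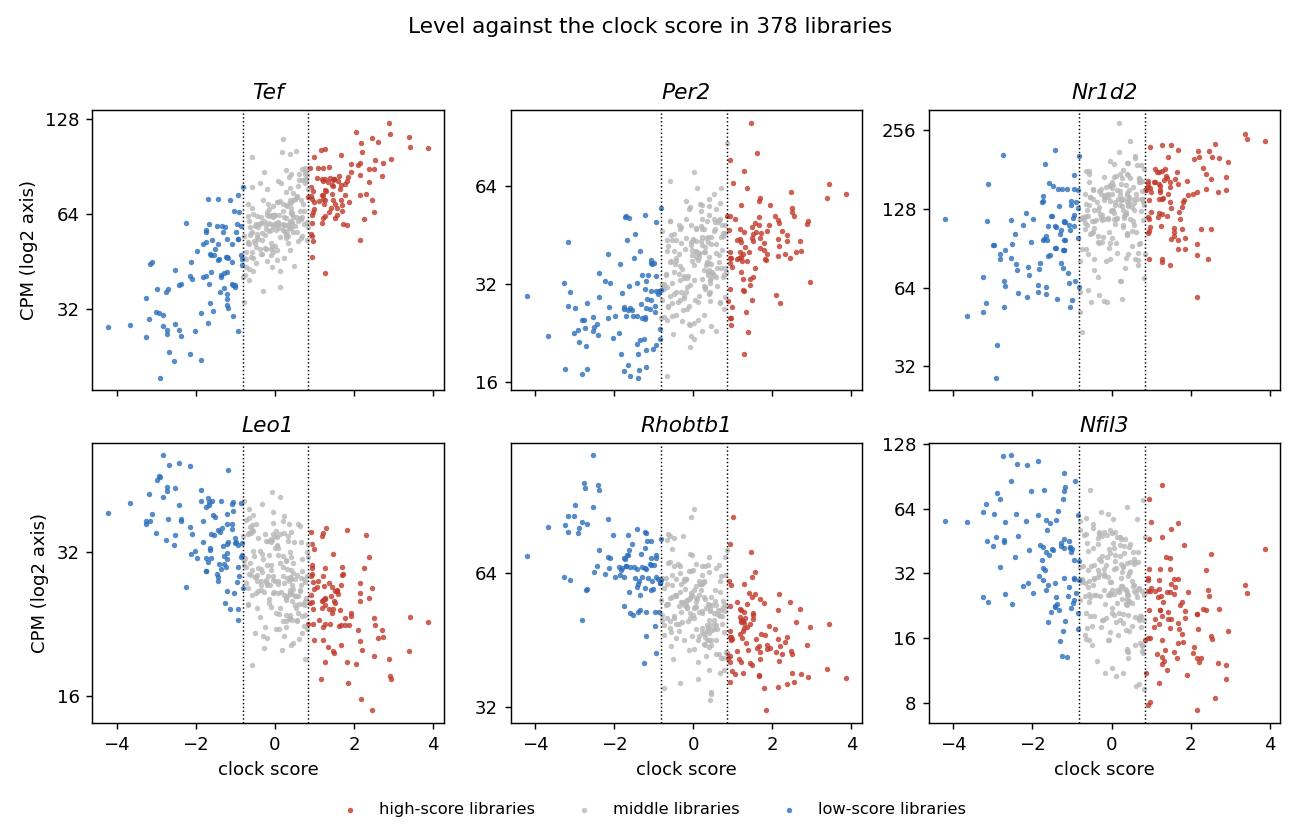
CPM on a log2 axis against the clock score for 6 genes in all libraries, with dotted lines at the boundaries of the groups (-0.812 and 0.846). Tef, Per2 and Nr1d2 climb and Leo1, Rhobtb1 and Nfil3 descend along the whole score, with wide scatter at any given score.

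Among 20 genes of proteins that modify the clock, 2 were higher and 4 lower, with a median of -0.0317. Over all genes 9.76% were higher and 9.7% lower. Higher were Btrc, a ubiquitin ligase subunit that marks PER proteins for decay (0.12 ± 0.03), and Nono, an RNA-binding protein found with PER (0.06 ± 0.02). Lower were Btrc's relative Fbxw11 (-0.14 ± 0.03), the kinase Gsk3b (-0.13 ± 0.03), the deacetylase Sirt1 (-0.18 ± 0.04) and the casein kinase Csnk1a1 (-0.06 ± 0.02). Gsk3b had medians of 150.4 CPM in high-score and 166.8 CPM in low-score libraries, and 81 high-score libraries were below the low-score median. Another casein kinase gene, Csnk1d, did not pass (0.02 ± 0.02), nor did Usp2 (-0.22 ± 0.09, adjusted p = 0.053) or Noct (-0.11 ± 0.07). Nono missed the threshold in 6 and Csnk1a1 in 5 of the 18 alternatives that used both sexes and more than 1 band. For this list, groups taken by Dbp, Per3 and Ciart alone gave 1 higher and 1 lower (5.11% and 7.46% of all genes). Those taken by Arntl, Npas2 and Clock alone gave 1 and 9 (11.8% and 12.6%). Females alone gave 0 and 5 (4.61% and 6.06%), and males alone 1 and 0 (1.47% and 2.15%).

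Of 20 genes that cycle in many tissues, 2 were higher and 3 lower, shares near those of all genes (9.76% and 9.7%), with a median of 0.00887. Tspan4, a membrane protein of the tetraspanin family, had 3.55, 6.70 and 13.3 CPM in high-score libraries, against 2.43, 4.58 and 11.7 CPM in low-score libraries (0.51 ± 0.06, adjusted p = 2.1e-13). Tsc22d3 (GILZ), a target of glucocorticoids, was also higher (0.31 ± 0.05). Lower were Lonrf3 (-0.60 ± 0.08), the cell cycle inhibitor Cdkn1a (-0.35 ± 0.05) and Insig2, a regulator of sterol synthesis (-0.13 ± 0.04). Wee1, Fkbp5, Por, Klf9, Sgk1 and Pdk4 were among the 15 that did not pass.

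The genes with the smallest p outside the clock lists were mostly lower in high-score libraries. Leo1, a subunit of the PAF1 complex that travels with RNA polymerase II, had 14.9, 24.9 and 35.9 CPM in high-score libraries, against 23.1, 34.98 and 51.1 CPM in low-score libraries. The difference was -0.52 ± 0.04 (adjusted p = 2.9e-30), with 91 high-score libraries below the low-score median and 43 low-score libraries above every high-score one. Of the genes named by rule outside the score whose start-site windows were counted, Leo1 alone holds a ROR element (chr9:75441274-75441573, plus strand), 66 bases before the start and shown in capitals.
Leo1: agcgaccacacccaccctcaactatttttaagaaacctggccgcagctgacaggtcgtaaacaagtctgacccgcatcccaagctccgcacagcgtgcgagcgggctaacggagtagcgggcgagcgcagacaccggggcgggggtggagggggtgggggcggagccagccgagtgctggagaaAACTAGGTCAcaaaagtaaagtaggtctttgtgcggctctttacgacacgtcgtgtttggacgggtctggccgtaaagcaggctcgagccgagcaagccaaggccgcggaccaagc
The same element is in 1 of the 2 windows of Arntl, the one printed above, and in no window of Npas2 or Clock. The direction of these score genes was fixed by the choice of the groups, and a link between the element and a direction was not tested.

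Rhobtb1 had 31.5, 45.95 and 85.6 CPM in high-score libraries, against 40.3, 65.9 and 117.5 CPM in low-score libraries (-0.53 ± 0.04, adjusted p = 6.6e-29). Of the high-score libraries, 92 were below the low-score median. Nlk (Nemo-like kinase) had medians of 53.2 CPM in high-score and 63.4 CPM in low-score libraries (-0.25 ± 0.02), and 92 of 95 high-score libraries were below the low-score median. The p38 kinase gene Mapk14 (-0.31 ± 0.03), Mapk6 (ERK3, -0.37 ± 0.04), Rps6ka3 (RSK2, -0.29 ± 0.03) and Mast4 (-0.52 ± 0.05) were lower, as were the phosphatase genes Ppm1b (-0.31 ± 0.03) and Ptpn9 (-0.23 ± 0.02). Also among the 15 lower genes with the smallest p were Ypel2 (-0.54 ± 0.05), Hip1r, which works in endocytosis (-0.32 ± 0.03), the integrin gene Itgav (-0.43 ± 0.05) and Tbc1d14 (-0.29 ± 0.03). Counts of Mast4, Hip1r and Itgav were fractional in nearly all libraries. Ppm1b, Mast4, Hip1r and Itgav each overlap a gene on the opposite strand that was also lower. These are 1110020A21Rik (-0.365), Cd180 (-0.295), Vps37b (-0.252) and Gm13684 (-0.469).

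Higher genes with the smallest p were led by the clock genes above. Naa60, an acetyltransferase of membrane proteins, had 35.98, 49.05 and 66.04 CPM in high-score libraries, against 28.7, 43.5 and 52.9 CPM in low-score libraries (0.19 ± 0.02, adjusted p = 8.3e-14). Its counts, like those of Tspan4, were fractional in all libraries, and both genes overlap a gene on the opposite strand (Zfp597 at 0.09 and Chid1 at -0.11, which did not pass). The kinase gene Mknk1 (0.33 ± 0.04), the beta-arrestin gene Arrb2 (0.26 ± 0.03), the transcription cofactor gene Ldb1 (0.15 ± 0.02) and Hes6 (0.33 ± 0.04) were higher as well. Hes6 lies 1944 bases from Per2 on the same strand. Akr1c13 (0.40 ± 0.06), Ccdc116 (0.36 ± 0.05), Mettl13 (0.24 ± 0.03) and Dnpep (0.18 ± 0.03) complete the 15. Ccdc116 overlaps Ydjc on the opposite strand, which was also higher (0.229).

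By size, the higher genes after Tef included several of low level. Neurog3, the transcription factor of endocrine precursors, had 0.627, 2.50 and 22.8 CPM in high-score libraries, against 0.182, 1.52 and 5.26 CPM in low-score libraries (0.73 ± 0.12, adjusted p = 1.1e-06). Arg1, which encodes arginase, had medians of 9.61 CPM in high-score and 6.35 CPM in low-score libraries (0.62 ± 0.10). Cyp4f39 (0.77 ± 0.15) and Ifit1bl1 (0.56 ± 0.18) were higher as well. Lower were Igf2bp2, an RNA-binding protein (-0.81 ± 0.10), Nyap2 (-0.90 ± 0.13), the glycogen-targeting subunit gene Ppp1r3c (-0.84 ± 0.13), Zc3h12d (-0.79 ± 0.14), Mlf1 (-0.72 ± 0.15) and Rerg (-0.71 ± 0.14). Igf2bp2 had medians of 6.08 CPM in high-score and 12.2 CPM in low-score libraries, and 85 high-score libraries were below the low-score median.

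A few libraries stand apart from the rest and carry some large differences. Over all libraries, 13 had a correlation below 0.96 with the median library of their number band (median over all libraries 0.978). Of these, 3 are high-score and 7 low-score, all 7 from males. Fibronectin (Fn1) had medians of 1.62 CPM in high-score and 1.70 CPM in low-score libraries but highest values of 10.1 CPM in high-score and 135.7 CPM in low-score libraries. Its difference of -0.92 ± 0.20 became -0.27 (adjusted p = 0.18) without those 10 libraries. Prss1 (-1.49 ± 0.54) became -0.60 (adjusted p = 0.45) without them, and Chgb, a secretory granule protein, -0.16 in place of -0.31. Eno1b (-1.21 ± 0.45) kept its size (-1.18) but missed the threshold (adjusted p = 0.051). Tef, Per2, Nr1d2, Hlf, Bhlhe41, Nfil3 and Cry1 passed without these libraries and under each of the 18 alternatives that used both sexes and more than 1 band.

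Among genes of islet endocrine cells, the insulin genes did not pass, with Ins1 at medians of 33359 CPM in high-score and 33388 CPM in low-score libraries (0.01 ± 0.06) and Ins2 at 91679 CPM in high-score and 94184 CPM in low-score libraries (-0.02 ± 0.04). Of 22 beta cell genes 2 were higher and 1 lower, shares below those of all genes (9.76% and 9.7%), with a median of 0.0332. Glp1r, the receptor of the incretin GLP-1, had medians of 174.6 CPM in high-score and 150.8 CPM in low-score libraries (0.25 ± 0.06, adjusted p = 0.00095), and Abcc8, a subunit of the potassium channel that couples glucose to insulin release, was higher by 0.16 ± 0.04 and lies 394320 bases from Dbp, a score gene. Neurod1, a transcription factor of endocrine cells, had 129.9, 228.8 and 366.2 CPM in high-score libraries, against 145.3, 275.95 and 395.7 CPM in low-score libraries (-0.25 ± 0.03, adjusted p = 7.5e-10). In 80 high-score libraries Neurod1 was below the low-score median. Among 23 exocytosis and granule genes 2 were higher and 4 lower, against the same shares of all genes. Cplx2 (0.17 ± 0.04) and Sytl4 (0.23 ± 0.05) were higher, while Syt4 (-0.22 ± 0.05), Unc13a (-0.15 ± 0.04), Rab27a (-0.07 ± 0.03) and Chgb were lower. In males alone 0 beta cell genes were higher and 1 lower, and 0 and 0 of the exocytosis and granule genes (1.47% and 2.15% of all genes). Females alone gave 2 and 1, and 4 and 3 (4.61% and 6.06%).

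Of 9 delta and PP cell genes 3 were higher and 0 lower, with a median of 0.19. Over all genes 9.76% were higher and 9.7% lower. Pyy, a peptide hormone gene, had medians of 411.2 CPM in high-score and 261.96 CPM in low-score libraries (0.51 ± 0.11, adjusted p = 0.00016). Sst, the somatostatin gene (0.32 ± 0.11), and Hhex, the transcription factor of delta cells (0.30 ± 0.08), were higher as well. Sst missed the threshold in 5 of the 18 alternatives that used both sexes and more than 1 band. Of 11 alpha cell genes 3 were higher and 0 lower, with a median of 0.191. Slc38a5 (0.43 ± 0.13), Slc7a2 (0.19 ± 0.05) and Irx1 (0.35 ± 0.13) passed, whereas Gcg had medians of 16873 CPM in high-score and 14328 CPM in low-score libraries and did not (0.16 ± 0.10, adjusted p = 0.246). Irx1 missed the threshold in 6 of those 18 alternatives. In females alone 1 delta and PP cell gene and 2 alpha cell genes were higher (4.61% of all genes). In males alone 2 and 0 were higher (1.47% of all genes), and the alpha cell median was 0.0796. No gene of either list was lower in 1 sex alone.

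Markers of non-endocrine cells were given the same test, in which 9.76% of all genes were higher and 9.7% lower. The 17 acinar genes tested had a median of 0.566, yet 1 passed (Pnlip, 0.63 ± 0.24, adjusted p = 0.0497). Their summed level, over 18 listed genes, was 130.3, 3608.3 and 49485 CPM in high-score libraries (lowest, median and highest), against 238.2, 3573.4 and 28194 CPM in low-score libraries. In the middle libraries all 17 had negative slopes. Amy1 (0.78 ± 0.19), Klk1 (0.70 ± 0.24) and Tff2 of the duct list (0.72 ± 0.24) passed too, but these and Pnlip did not in the deposited values (adjusted p of 0.053 for Amy1, 0.69 for Klk1, 0.44 for Tff2 and 0.93 for Pnlip). Of 12 stellate cell and fibroblast genes, 0 were higher and 5 lower, with a median of -0.356, and without the 10 libraries that stand apart 1 was lower with a median of -0.113 (over all genes 10.8% were then higher and 10.4% lower, 21.2% in all). Groups taken by Dbp, Per3 and Ciart alone gave 9 lower with a median of -0.461 (over all genes 5.11% higher and 7.46% lower, 12.6% in all), and those taken by Arntl, Npas2 and Clock alone gave 0 lower with a median of -0.0121 (over all genes 11.8% higher and 12.6% lower, 24.4% in all). The 5 lower with all libraries were Acta2, the smooth muscle actin (-0.58 ± 0.17), Lum (-0.59 ± 0.18), Col3a1 (-0.56 ± 0.17), Col6a1 (-0.38 ± 0.11) and Rgs5 (-0.27 ± 0.09), and Acta2 was the one left. The list's sum was 72.5, 153.9 and 768.5 CPM in high-score libraries, against 90.98, 162.1 and 1564.9 CPM in low-score libraries. No member of the acinar or stellate lists had a median of 0 CPM. The mean log2 CPM of the acinar, duct, endothelial, stellate and fibroblast, macrophage and lymphocyte lists gave each library 6 cell type scores. With these 6 cell type scores as covariates 1926 genes were higher (10.7% of those tested) and 2014 lower (11.2%), 22% in all, and the core clock list had 7 higher and 2 lower. Members of the lists behind the scores are thereby adjusted for their own mean.

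Genes that respond within minutes to stimulation were lower in high-score libraries. Of 18 immediate early genes 0 were higher and 11 lower (9.76% and 9.7% of all genes), with a median of -0.3. Fosb had 4.25, 37.2 and 481.99 CPM in high-score libraries, against 7.31, 67.8 and 441.1 CPM in low-score libraries (-0.68 ± 0.17, adjusted p = 0.0019). Fosl2 (-0.46 ± 0.09), Npas4 (-0.44 ± 0.12), Atf3 (-0.54 ± 0.13) and Dusp1 (-0.21 ± 0.06) were lower as well, and so were Fos, Jun, Egr2, Nr4a1, Nr4a2 and Nr4a3 (-0.26 to -0.46). Of 12 NF-kB target and isolation stress genes 0 were higher and 8 lower, with a median of -0.266. Nfkbiz, an inducible NF-kB regulator, had medians of 65.5 CPM in high-score and 88.8 CPM in low-score libraries (-0.39 ± 0.08, adjusted p = 4.3e-05), and 75 high-score libraries were below the low-score median. Tnfaip3 (-0.35 ± 0.09), Il6 (-0.56 ± 0.15) and Cxcl2 (-0.33 ± 0.10) were also lower. All 12 had negative slopes in the middle libraries, as did 17 of the 18 immediate early genes. Without the 10 libraries that stand apart 10 immediate early genes and 7 NF-kB target and isolation stress genes were lower, and with the cell type scores again 10 and 7. Over all genes 10.4% and 11.2% were lower in these settings.

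Most genes of the amino acid and stress response were higher in high-score libraries. Of 15 targets of ATF4 and CHOP 10 were higher and 2 lower (9.76% and 9.7% of all genes), with a median of 0.177. In females alone 5 were higher and 1 lower (4.61% and 6.06% of all genes), with a median of 0.205. In males alone 0 passed (1.47% and 2.15% of all genes), with a median of 0.0879. With both sexes Trib3 (0.35 ± 0.09), Sesn2 (0.28 ± 0.08) and the cystine transporter gene Slc7a11 (0.41 ± 0.11) were higher, as were Shmt2, Chac1, Atf4 itself, Psat1, Mthfd2, Phgdh and Asns (0.08 to 0.27), while Atf3 and Ppp1r15a (-0.20 ± 0.06) were lower. Groups taken by Dbp, Per3 and Ciart alone gave 9 higher and 1 lower, and those taken by Arntl, Npas2 and Clock alone 2 and 2, near the shares of all genes in such groups. Of 19 chaperone and degradation genes of the endoplasmic reticulum 4 were higher and 0 lower. Herpud1, which acts in the removal of misfolded proteins, had medians of 241.2 CPM in high-score and 184.7 CPM in low-score libraries (0.32 ± 0.07, adjusted p = 0.00017), and Sel1l (0.16 ± 0.05), Pdia4 (0.16 ± 0.05) and Syvn1 (0.15 ± 0.05) were the others. Groups taken by Dbp, Per3 and Ciart alone gave 1 higher and 1 lower, and those taken by Arntl, Npas2 and Clock alone 6 and 1. Over all genes, groups by Dbp, Per3 and Ciart gave 5.11% higher and 7.46% lower, and the others 11.8% and 12.6%. Of the endoplasmic reticulum genes 2 were higher and 0 lower in females alone, with a median of 0.0706. In males alone 0 passed, with a median of -0.0254.

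Of 15 glucocorticoid-responsive genes 1 was higher (Tsc22d3) and 3 lower, with a median of -0.00959. Over all genes 9.76% were higher and 9.7% lower, and none of the short lists in this paragraph was tested against those shares. Errfi1, an inhibitor of EGF receptor signalling, had 39.5, 95.5 and 272.1 CPM in high-score libraries, against 45.5, 145.1 and 352.7 CPM in low-score libraries (-0.61 ± 0.07, adjusted p = 2.7e-12). It lies 134760 bases from Per3, a score gene. The other 2 lower genes were Dusp1 and the metallothionein gene Mt2 (-0.29 ± 0.11). Among 15 genes that respond to heat, Hspd1 (0.08 ± 0.02) and Ahsa1 (0.07 ± 0.03) were higher and Bag3 (-0.16 ± 0.05) and Hspa4l (-0.12 ± 0.04) lower. Among 4 cold-inducible genes 0 passed, Cirbp (-0.06 ± 0.03) and Rbm3 (0.09 ± 0.04) included. Of 15 genes of fasting and glucose response 1 was higher, Mlxipl, which encodes the glucose sensor ChREBP (0.21 ± 0.04), and 3 lower. These were Trib1 (-0.14 ± 0.05), Arrdc4 (-0.20 ± 0.07) and Irs2, an adaptor of the insulin receptor, with medians of 44.2 CPM in high-score and 62.6 CPM in low-score libraries (-0.39 ± 0.09). Mice differed widely in Irs2, from 15.9 to 198.2 CPM in high-score and from 15.6 to 184.5 CPM in low-score libraries.

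Of 17 oxidative phosphorylation genes 9 were higher and 0 lower, by at most 0.12 and with a median of 0.0549. Over all genes 9.76% were higher and 9.7% lower, which holds for each list below where no other setting is named. Without the 10 libraries that stand apart 7 were higher, where 10.8% of all genes were higher and 10.4% lower. Groups taken by Dbp, Per3 and Ciart alone gave 1 higher (5.11% of all genes) and those taken by Arntl, Npas2 and Clock alone 7 (11.8% of all genes). Sex as the only covariate gave 4 (4.92% of all genes) and each sex alone 0, where 4.61% of all genes were higher in females and 1.47% in males. Ndufs1, a subunit of complex I, had medians of 95.8 CPM in high-score and 91.2 CPM in low-score libraries (0.09 ± 0.02). Of 13 mitochondrially encoded genes 1 was lower (mt-Atp8, -0.36 ± 0.12) and 0 higher. Of 15 ribosome biogenesis genes 5 were higher and 0 lower, namely Bop1 (0.15 ± 0.03), Rrp9 (0.16 ± 0.04), Polr1b (0.09 ± 0.03), Ubtf (0.07 ± 0.02) and Polr1c (0.06 ± 0.02). Without the libraries that stand apart 2 were higher and 1 lower, against 10.8% and 10.4% of all genes. Of 20 proliferation genes Pcna (-0.12 ± 0.04), Mki67 (-0.45 ± 0.15) and Birc5 (-0.41 ± 0.14) were lower and 0 higher, and without them Pcna alone was lower. Among 20 sterol and fatty acid synthesis genes Acly, which makes cytosolic acetyl-CoA (0.16 ± 0.03), and Lss (0.14 ± 0.04) were higher, and the elongase gene Elovl6 was lower (-0.26 ± 0.05). Of 9 hypoxia genes Vegfa was higher (0.11 ± 0.02) and Ndrg1 lower (-0.22 ± 0.05), and of 13 antioxidant genes Prdx3 was higher (0.14 ± 0.03) and Srxn1 lower (-0.19 ± 0.05). Of 15 interferon response genes 0 passed, with a median of 0.185. Groups taken by Arntl, Npas2 and Clock alone gave 10 higher (11.8% of all genes), whereas those taken by Dbp, Per3 and Ciart alone gave 2 lower (7.46% of all genes). None passed of 13 endothelial, 3 lymphocyte, 1 adipocyte and 5 red blood cell genes. Of 12 duct genes Krt7 (0.18 ± 0.04) and Tff2 were higher. Of 10 macrophage genes Mrc1 (-0.49 ± 0.15) and C1qb (-0.20 ± 0.08) were lower, both not past the threshold without the libraries that stand apart, where Itgam and C1qa were higher and Cd68 lower. Of 5 Schwann cell genes 1 was lower, Mbp (-0.20 ± 0.04).

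**Figure D4:**
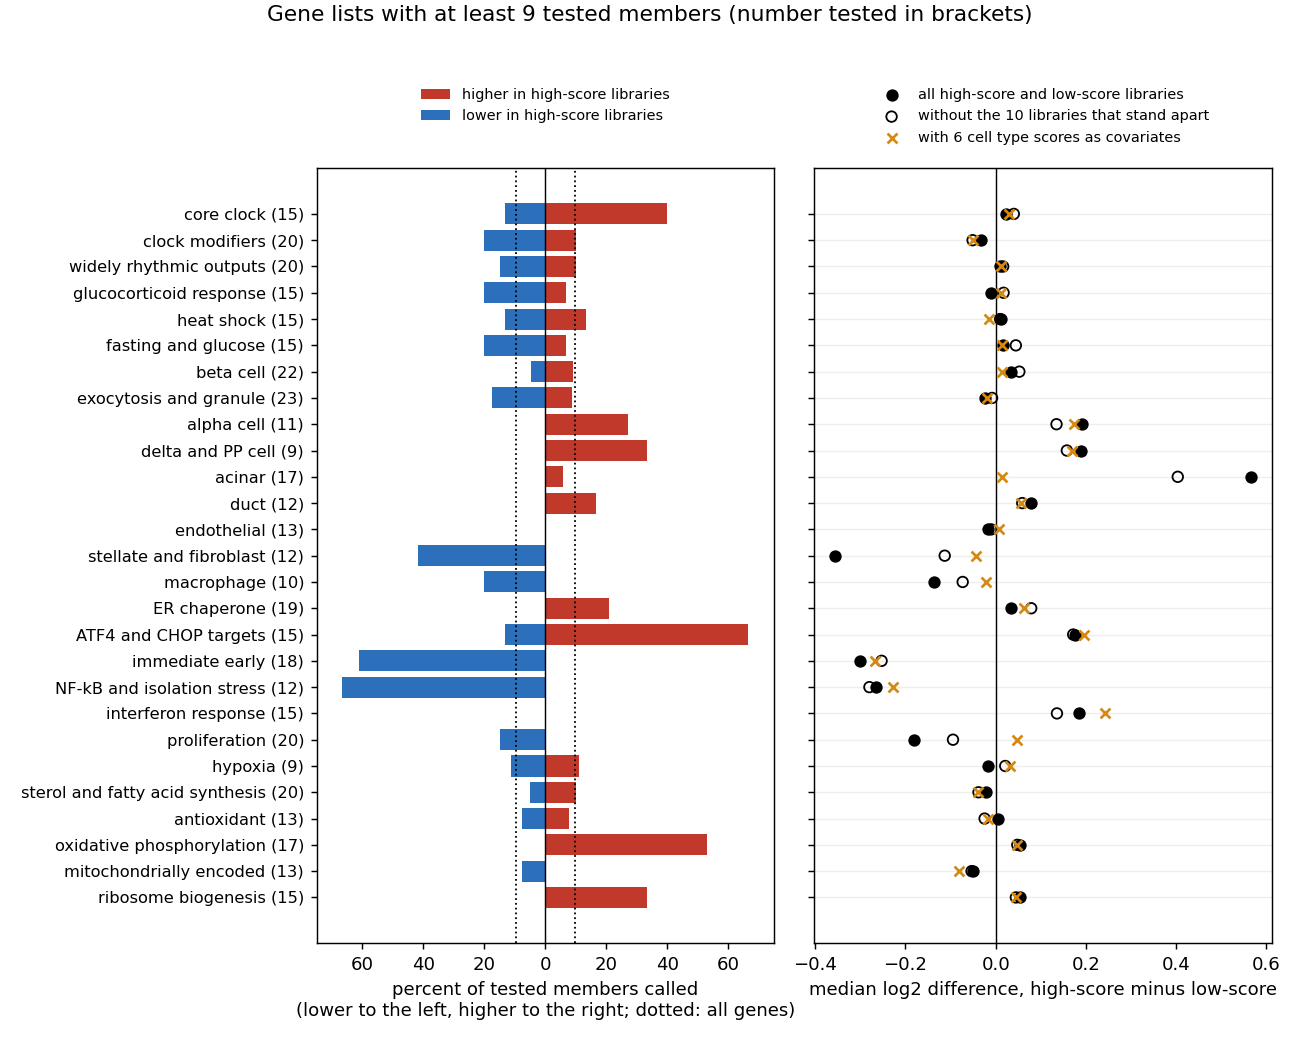
Left, percent of tested members higher (red) or lower (blue) in high-score libraries for each list of at least 9 tested genes, with dotted lines at the share of all genes (9.76% and 9.7%). Right, the list's median log2 difference in all libraries, without the 10 that stand apart, and with 6 cell type scores as covariates. The immediate early median of -0.3 becomes -0.268 with those scores. The acinar list (0.566, then 0.0143) and the other lists behind the scores were adjusted for their own mean. Their medians with the scores therefore carry no result.

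The clock genes kept their directions in each sex alone. Tef differed by 0.70 in females and 1.08 in males, and Nr1d2 by 0.39 in females and 0.68 in males. Leo1, which is not on the clock lists, differed by -0.38 in females and -0.66 in males. It was named by its p among genes with an equal sign in both sexes, so its agreement was fixed by that choice. The 8 core clock genes that passed had the same sign in females, in males and in each of the 4 number bands alone. In females alone 827 genes were higher (4.61% of those tested) and 1087 lower (6.06%), 10.7% in all. In males alone 1.47% were higher and 2.15% lower, 3.62% in all. The genes higher in both lists made up 14.6% of those higher in females and 46% of those higher in males, and the 210 lower in both 19.3% of those lower in females and 54.4% of those lower in males. These lists come from different mice.

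The interaction of group with sex tests whether a difference itself depends on sex. It passed for 1 gene, Slc5a10 (0.00558% of those tested), and had an unadjusted p under 0.05 for 1088. Tef had an interaction of -0.38 (female difference minus male difference, adjusted p = 0.28) and Leo1 of 0.28 (adjusted p = 0.1), so that their larger differences in males did not pass.

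**Figure D5:**
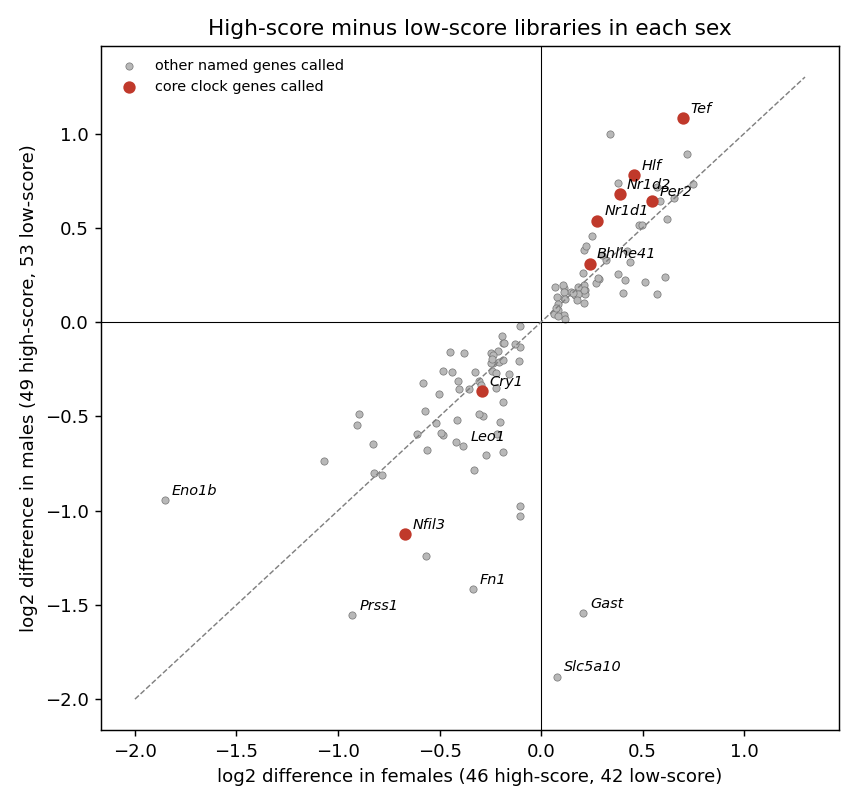
Log2 difference between high-score and low-score libraries in females (horizontal axis) and in males (vertical axis) for the named genes that passed, with the dashed line marking equal differences. Core clock genes lie in the 2 quadrants of equal sign, and Slc5a10 lies apart, at 0.08 in females and -1.88 in males. Genes named only by p or size were picked for an equal sign in both sexes, so their place carries no result.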

How the data were processed

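Polyadenylated RNA of islets from 378 mice was sequenced, with 1 library a mouse. The authors deposited 2 tables of 22180 genes, one of estimated counts per gene, of which 67.7% are whole numbers, and one of variance-stabilised values on a log2 scale. The submitters' processing notes name GRCm38 and DESeq2; the sources used here do not give the aligner, the counting program or its use of strand. The log2 values deposited by the authors gave the score, after standardisation within title letters F and M, taken as sex. Estimated counts were rounded to whole numbers, scaled by TMM factors and tested with edgeR 4.0.16 (quasi-likelihood test) in R 4.3.3, with sex and number band as covariates and Benjamini-Hochberg adjustment at 0.05. The band is a covariate because earlier results on these counts showed a large difference between bands. Bands are the mouse numbers in the titles in 4 groups of 100 from 21, and the labels do not say what a number stands for. A standard error is the absolute log2 difference divided by the square root of F. Libraries are different mice, and p-values measure the spread between them.

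The members and gene lists were chosen with earlier results of these data known, so no pattern is independent support for another. Genes named are the core clock and clock modifier lists, the 15 genes of smallest p and 10 of largest difference in each direction (mean CPM at least 2, one sign in both sexes and all bands), the 4 of smallest p in each other list, Ins1, Ins2, Gcg and Sst, and the 5 of smallest interaction p. A single gene picked by this rule is not reported here and is left out of its list, though it stayed in the fit. List members outside this rule were named after their values were seen. Alternatives used DESeq2 1.42.0, limma 3.58.1 (voom, and the deposited log2 values), other scaling, filters, covariates, score genes and shares of libraries. The ones without libraries that stand apart, and without the male library of lowest correlation, were chosen after seeing the data. Tables and figures were made with Python 3.11.15, pandas 2.3.3, NumPy 2.4.6 and matplotlib 3.10.9. The test was tested on simulated data.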

Additional observations from a re-analysis of the deposited data

Results flagged for a closer look

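Slc5a10, a sugar transporter gene, was the 1 gene whose difference between high-score and low-score libraries itself differed between females and males. Its difference was 0.08 in females and -1.88 in males, and the female difference minus the male difference was 2.14 ± 0.44 (log2, adjusted p = 0.039, edgeR's quasi-likelihood test). It had 0.0925, 0.424 and 9.71 CPM in high-score libraries (lowest, median and highest), against 0.116, 0.476 and 124.6 CPM in low-score libraries. The library with 124.6 CPM came from a male and correlates least of all libraries with the median of its band. Without that library the interaction was 1.14 (adjusted p = 0.66), and without all libraries that stand apart it was 0.61 (adjusted p = 0.94). Its counts were fractional in all libraries, and it overlaps Fam83g on the opposite strand, which was lower in high-score libraries (-0.267).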

How the results depend on the processing

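The shares of genes higher and lower ranged from 6.95% to 11.8% and from 7.46% to 12.6%, against 9.76% and 9.7%, under alternatives other than the following. With sex as the only covariate they were 4.92% and 5.74%, in females alone 4.61% and 6.06%, in males alone 1.47% and 2.15%, and in bands 1 to 4 alone 0.223% and 0.859%, 1.29% and 1.9%, 0.307% and 0.547%, and 0.162% and 0.229%. The score from Dbp, Per3 and Ciart gave 5.11% higher genes. The interaction with sex called 0 genes in the deposited values and with limma-voom, and 3 without the libraries that stand apart (Ighm, Cyp26b1 and Gm14648), and the slopes in the middle libraries called 2 (Tef and Naa60) in the deposited values, with limma-voom and with sex as the only covariate. Of the named differences that passed with all libraries or under the alternative, these turned direction: in band 4 Mt2 (0.07), Hspa4l (0.0436), Trib1 (0.0636), Npas4 (0.0469), Pcna (0.0013) and Srxn1 (0.0481), in band 3 Csnk1a1 (0.0095), in band 1 Tff2 (-0.14) and Birc5 (0.0165), in band 2 Gm10045 (2.45), in females Slc5a10 (0.0779) and Gast (0.21), without the libraries that stand apart Gast (0.0559), and between the top and bottom 10% mt-Atp8 (0.0808). The causes were not tested. Over 24 alternatives and the named genes, 729 values lost the threshold (466 of them in 1 sex or 1 band). Differences that passed neither way also changed sign in places and are not counted. No paired analysis was possible because every mouse has its own number. Depth limits genes of few counts most, such as Prss1, with medians of 0.117 CPM in high-score and 0.172 CPM in low-score libraries.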
